A study of Mus musculus with 10 samples.

Results

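The genes described here flank Rrp8 on mouse chromosome 7, and the comparison asks whether they are altered in livers of mice in which Rrp8 has been knocked out. They were chosen by name as its near neighbours without the olfactory receptor genes that surround them: Ilk, Taf10, Tpp1 and Dchs1 on one side, and Dnhd1, Arfip2, Apbb1, Smpd1, Cnga4 and Fam160a2 on the other. These are 10 genes, of which 9 were among the 19935 genes tested. Dnhd1 was not, because its probe set also lists Timm10b and cannot be assigned to either gene. Total RNA was labelled with biotin and hybridised to whole-transcript microarrays, 1 array per liver, from 5 NML-KO mice and 5 WT mice, all 12 weeks old. NML, or nucleomethylin, is the protein encoded by Rrp8. The strain, the design of the knockout allele and the part of Rrp8 removed (not given in the sources used here) limit what the mice can be taken to model. All values below are log2 intensities of 1 probe set per gene, and differences are NML-KO minus WT on that scale.

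Nucleomethylin is a methyltransferase-like protein of the nucleolus that acts in the silencing of genes for ribosomal RNA. Its neighbours have unrelated roles in adhesion, transcription, lysosomal breakdown and vesicle traffic, so what they share is position. Background from other knockout lines makes position of interest, since a deletion or a selection cassette can alter genes beside the one targeted.

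Rrp8 and Ilk lie closest of all. In the RefSeq annotation they run in opposite directions, with a start site of Rrp8 and a start site of Ilk separated by 5 bases. The window from 250 bases before to 50 bases after each of these starts is shown because the comparison turns on this pair, 5′ to 3′ on the strand of each gene. Sequences are from RefSeq, build GRCm38.p6, at chr7:105736535-105736834 on the minus strand for Rrp8 and chr7:105736340-105736639 on the plus strand for Ilk. Capitals mark the 105 bases that both windows hold, as reverse complements of each other.
Rrp8: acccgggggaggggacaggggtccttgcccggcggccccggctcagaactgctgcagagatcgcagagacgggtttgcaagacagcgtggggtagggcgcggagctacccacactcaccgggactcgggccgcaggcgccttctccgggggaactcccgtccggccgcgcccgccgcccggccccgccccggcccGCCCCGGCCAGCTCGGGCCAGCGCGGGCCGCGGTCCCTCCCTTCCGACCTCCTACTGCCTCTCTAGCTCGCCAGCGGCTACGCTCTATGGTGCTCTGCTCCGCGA
Ilk: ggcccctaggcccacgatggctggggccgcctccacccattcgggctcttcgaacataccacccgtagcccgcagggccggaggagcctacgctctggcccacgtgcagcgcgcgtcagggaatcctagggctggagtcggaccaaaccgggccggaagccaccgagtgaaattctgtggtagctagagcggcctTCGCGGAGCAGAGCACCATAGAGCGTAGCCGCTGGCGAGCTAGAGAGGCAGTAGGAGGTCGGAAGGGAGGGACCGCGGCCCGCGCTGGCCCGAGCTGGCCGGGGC
Both windows are rich in the dinucleotide CG, which reads the same on either strand. The Rrp8 window holds 36 and the Ilk window 29, against a median of 7 over 32851 RefSeq windows of this length, of which 6.23% hold at least 36 and 12.9% at least 29. Each gene has 1 further annotated start, and that of Rrp8 lies inside Ilk, so that the annotated spans of Rrp8 and Ilk overlap.

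All 5 NML-KO livers had less Rrp8 signal than any WT liver. The values were 6.99, 6.78, 6.65, 7.19 and 6.75 in NML-KO 1 to 5, against 7.90, 7.66, 7.83, 7.70 and 7.65 in WT 1 to 5. The groups did not overlap, and the difference of -0.88 (SE 0.10, 95% confidence interval -1.10 to -0.65) gave p = 0.0079 by exact permutation, two-sided, the smallest that 252 assignments allow. By limma it ranked first of all genes, with an adjusted p of 0.109. Of the 19935 genes, 0 (0%) passed an adjusted p of 0.05 by limma, and 539 (2.7%) had an unadjusted p below 0.05, of which 330 (1.66%) were lower and 209 (1.05%) higher in NML-KO livers.

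Among the 9 measured neighbours 0 passed the adjusted threshold, and 0 had an unadjusted p below 0.05 by limma, which 2.7% of all genes had. Their smallest unadjusted p was 0.107, and the adjusted p was 0.999 for each. In 0 of the 9 did the NML-KO livers lie apart from the WT livers. Over all genes the groups did not overlap for 0.406%, lower in NML-KO livers for 0.271%. With shares so small, a count of 0 among 9 genes does not set the neighbours apart from other genes. Estimates were below 0 for 8 of the 9, with a median of -0.083 and a range from -0.14 to 0.053. Over all genes 53.4% of estimates were below 0 and the median was -0.0065. By its second, dimmer probe set, described below, Taf10 was above 0 (0.046). For all 9 the 95% interval lay within a 1.5-fold change in either direction, as it did for 91.7% of all genes. The lower limit of each thus lay above the upper limit for Rrp8 (-0.65), as for any gene within that bound. In whole liver, fewer cells of a type and less RNA per cell cannot be told apart, so these values describe the tissue.

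**Figure D1:**
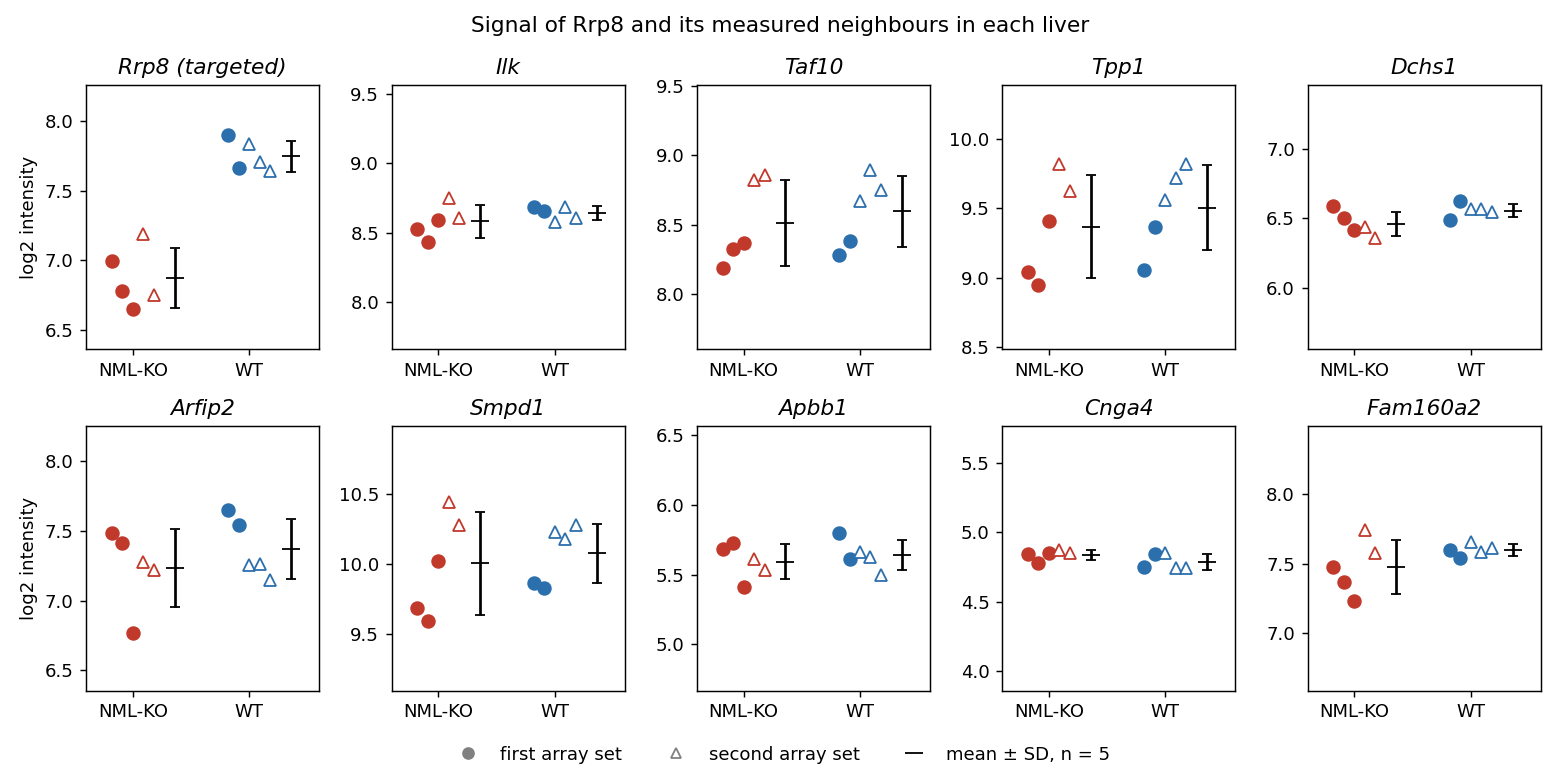
Log2 intensity of Rrp8 and its 9 measured neighbours in each liver, with NML-KO in red on the left and WT in blue on the right of each panel. Circles and triangles are the first and second array sets, bars are mean ± SD (n = 5), and every panel spans the same range, so that the separation of Rrp8 and the overlap of all others can be compared.

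Ilk encodes integrin-linked kinase, a scaffold that couples integrins to actin. It had values of 8.53, 8.43, 8.59, 8.75 and 8.61 in NML-KO 1 to 5, against 8.69, 8.66, 8.58, 8.68 and 8.61 in WT 1 to 5. NML-KO 1 and NML-KO 2 lay below all WT livers and NML-KO 4 above them, so that the NML-KO values enclosed the WT values. The means were 8.58 ± 0.12 in NML-KO livers and 8.64 ± 0.05 in WT livers (SD, n = 5 each), a difference of -0.060 (SE 0.062). The interval of -0.20 to 0.077 places the NML-KO signal between 87.2% and 105.5% of WT, while that of Rrp8, its divergent partner, lay between 46.5% and 63.8%.

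Taf10 encodes a subunit of TFIID and SAGA, the complexes that bring RNA polymerase II to promoters and modify chromatin. Its values were 8.19, 8.32, 8.37, 8.82 and 8.86 in NML-KO 1 to 5, against 8.29, 8.38, 8.67, 8.89 and 8.75 in WT 1 to 5. Both genotypes held a low and a high group of livers, and the difference between genotypes was -0.083 (SE 0.16, interval -0.44 to 0.28). With 1 liver left out it lay between -0.17 (without NML-KO 5) and -0.0020 (without NML-KO 1). Taf10 is the only neighbour with a second probe set of its own. That dimmer probe set, 10566525, averaged 6.66 ± 0.21 in NML-KO livers and 6.62 ± 0.47 in WT livers (SD, n = 5 each). The difference was 0.046 (SE 0.21, interval -0.42 to 0.51). The probe sets thus gave opposite signs, both within their errors, and the files do not state where the probes of either lie. The number of the dimmer one falls between those of Rrp8 (10566516) and Tpp1 (10566529), whereas the brighter one is 10365288. Whether the brighter one reads the Taf10 copy beside Rrp8 is in doubt and was not tested. Every other Taf10 value here, those of the array sets and figures included, comes from the brighter one. The annotated spans of Ilk and Taf10 overlap, and how their probes treat the shared stretch was not analysed here.

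Tpp1 encodes tripeptidyl peptidase 1, a lysosomal protease whose loss causes a neuronal storage disease in humans. It had 9.04, 8.95, 9.41, 9.82 and 9.63 in NML-KO 1 to 5, against 9.06, 9.36, 9.56, 9.72 and 9.82 in WT 1 to 5. The ranges nearly coincided at the top. By the 1 probe set used per gene, the difference of -0.13 (SE 0.19) had the widest interval of the neighbours, -0.56 to 0.29. With 1 liver left out it lay between -0.25 (without WT 1) and -0.031 (without NML-KO 2). Dchs1 encodes a giant cadherin that binds Fat4 on adjoining cells in planar cell polarity. Its values were 6.59, 6.50, 6.41, 6.44 and 6.36 in NML-KO 1 to 5, against 6.49, 6.62, 6.56, 6.56 and 6.55 in WT 1 to 5. NML-KO 3, 4 and 5 lay below all WT livers, and NML-KO 1 and 2 lay among them. Dchs1 had the smallest p of the neighbours, with a difference of -0.096 (SE 0.054, interval -0.22 to 0.025, unadjusted p = 0.107 by limma).

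Beyond Dnhd1 on the other side, the nearest measured neighbour was Arfip2, which encodes arfaptin 2, a membrane-bending protein of the Golgi. It had 7.48, 7.41, 6.77, 7.28 and 7.22 in NML-KO 1 to 5, against 7.65, 7.54, 7.25, 7.27 and 7.15 in WT 1 to 5. NML-KO 3 alone lay below all WT livers. The difference of -0.14 (SE 0.14, interval -0.46 to 0.18) was the lowest of the 9 and rested on that liver, since without it the difference was -0.023. Apbb1 encodes Fe65, an adaptor that binds the tail of the amyloid precursor protein. Its NML-KO values ran from 5.41 to 5.73 and its WT values from 5.50 to 5.80, with a difference of -0.047 (SE 0.075, interval -0.21 to 0.12), and -0.0009 without NML-KO 3.

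Smpd1 encodes acid sphingomyelinase, the lysosomal enzyme that splits sphingomyelin into ceramide and phosphocholine. Its values were 9.68, 9.59, 10.02, 10.45 and 10.28 in NML-KO 1 to 5, against 9.86, 9.83, 10.23, 10.18 and 10.28 in WT 1 to 5. NML-KO livers were both the lowest and the highest, and the difference was -0.071 (SE 0.17, interval -0.45 to 0.31). Without NML-KO 2 it was 0.031, and without NML-KO 4 it was -0.18.

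The outermost neighbours were Cnga4 and Fam160a2. Cnga4 encodes a modulatory subunit of the cyclic nucleotide-gated channel of olfactory neurons. Its signal was nearly flat, from 4.78 to 4.87 in NML-KO livers and from 4.74 to 4.85 in WT livers, and it had the only estimate above 0 (0.053, SE 0.045) and the narrowest interval, -0.047 to 0.15. Cnga4 and Apbb1 were the 2 neighbours with a mean signal below 6.22, the median over all genes, and the files hold no detection call. Their narrow intervals bound the probe signal and may not bound the transcript. Fam160a2 encodes a subunit of the complex that links Hook adaptors and cargo to dynein. It had 7.47, 7.37, 7.23, 7.74 and 7.58 in NML-KO 1 to 5, against 7.60, 7.54, 7.66, 7.58 and 7.61 in WT 1 to 5. The SD was 0.19 in NML-KO livers and 0.042 in WT livers, with 3 NML-KO livers below all WT livers and 1 above, and the difference was -0.12 (SE 0.087, interval -0.31 to 0.074).

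The names chosen leave out some genes of the same interval. Those measured were Hpx, Trim3, Cckbr, Cavin3 and Gm5901, which lie between the outermost neighbours, and Mrpl17, which lies next to Dchs1. Of these 6 genes 0 passed the adjusted threshold, and 2 had an unadjusted p below 0.05 by limma, both lower in NML-KO livers, where 2.7% of all genes had such a p and 1.66% were lower with it. Trim3, a ubiquitin ligase gene between Arfip2 and Hpx, had 7.81, 8.11, 7.97, 8.26 and 7.88 in NML-KO 1 to 5, against 8.23, 8.38, 8.15, 8.07 and 8.30 in WT 1 to 5. NML-KO 1, 3 and 5 lay below all WT livers. Its difference was -0.22 (SE 0.093, unadjusted p = 0.0378 and adjusted p = 0.999 by limma), and -0.34 and -0.11 in the first and second array sets described below.

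Cavin3, which encodes a coat protein of caveolae, had 6.29, 6.21, 6.11, 6.05 and 6.37 in NML-KO 1 to 5, against 6.51, 6.58, 6.43, 6.22 and 6.26 in WT 1 to 5. Its groups also overlapped, with a difference of -0.20 (SE 0.089, unadjusted p = 0.0489 and adjusted p = 0.999 by limma), and -0.35 and -0.097 in the first and second array sets. Hpx, which encodes the haem scavenger hemopexin that liver secretes, had a difference of 0.012 (SE 0.12), with NML-KO 4 at 14.42 and the other NML-KO livers from 13.80 to 13.94. Cckbr, the gastrin receptor gene, had -0.027 (SE 0.077), Mrpl17, a mitochondrial ribosomal protein gene, -0.028 (SE 0.13), and Gm5901, whose annotated span lies in that of Fam160a2, 0.11 (SE 0.10). The median over these 6 genes was -0.027.

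**Figure D2:**
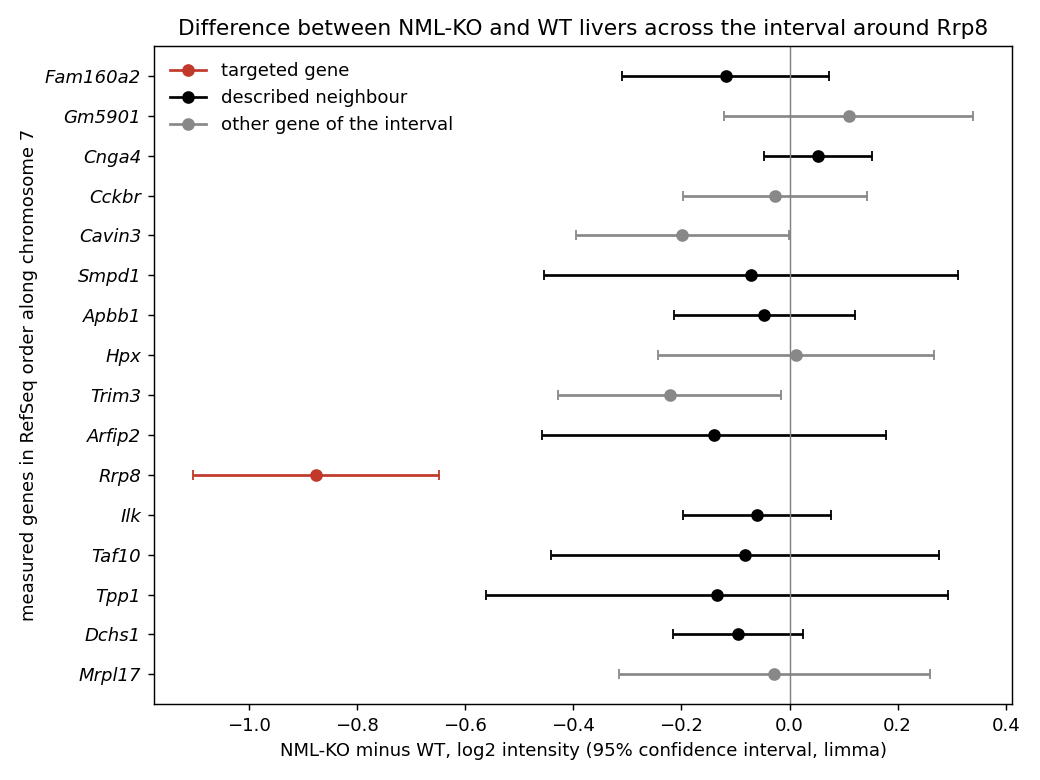
Difference in log2 intensity, NML-KO minus WT, with limma's 95% confidence interval, for the 16 measured genes of the interval from Fam160a2 at the top to Mrpl17 at the bottom, in RefSeq order. Rrp8 stands apart at -0.88, the interval of every described neighbour crosses 0, and among the other genes those of Trim3 and Cavin3 end below 0.

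In a wider view, 25 measured genes were taken on either side of Rrp8 in gene order. Of these 50 genes, 18 were not olfactory receptors. They include the 9 measured neighbours and the 6 other genes above, so Trim3 and Cavin3 are counted here again. Estimates were below 0 for 15 of the 18, with a median of -0.0805, as were 53.4% over all genes. Among the 18, 3 had an unadjusted p below 0.05 by limma, all lower in NML-KO livers, and 0 passed the adjusted threshold; over all genes 1.66% were lower with such a p. They were Trim3, Cavin3 and Gm1966. The 32 olfactory receptor genes, none with such a p, all had a mean signal below 6.22, the median over all genes, as did 6 of the 18 others. At so dim a signal a lack of calls says little about those receptor genes. Gm1966 lies beyond Mrpl17, 19 places from Rrp8 in the annotation. It had 5.997, 5.47, 5.41, 5.84 and 5.37 in NML-KO 1 to 5, against 5.77, 6.75, 6.15, 6.43 and 6.58 in WT 1 to 5, with a difference of -0.72 (SE 0.19, unadjusted p = 0.00351 and adjusted p = 0.999 by limma). WT 1 lay among the NML-KO livers. Gm1966 was itself 1 of the dim genes, with a mean over all arrays below 6.22 (5.62 in NML-KO livers and 6.34 in WT livers).

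**Figure D3:**
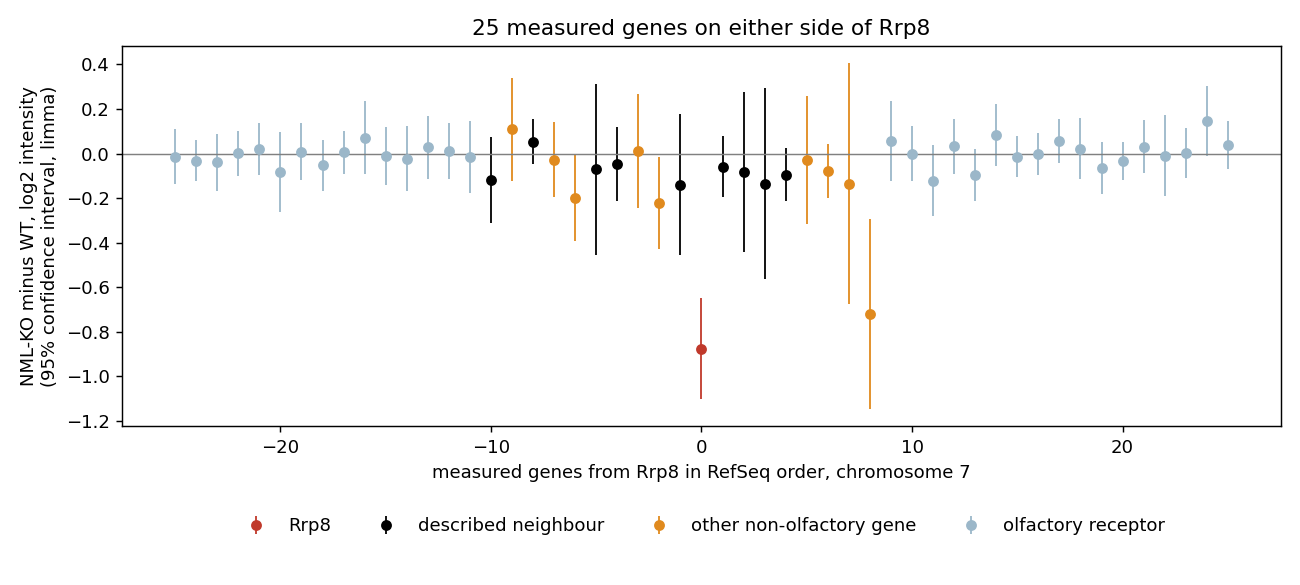
Difference in log2 intensity, NML-KO minus WT, with limma's 95% confidence interval, for Rrp8 and 25 measured genes on either side in RefSeq order. Rrp8 and Gm1966 are the lowest points, and the described neighbours lie between -0.14 and 0.053.

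The livers also differed in a way that cut across genotype, and 3 of the neighbours carried that pattern, Taf10 by its brighter probe set only. NML-KO 1 to 3 with WT 1 and 2 made up a first set of arrays, and NML-KO 4 and 5 with WT 3 to 5 a second, as divided by the leading principal component after each genotype was centred on its own mean, a component with 47.4% of the variance within genotypes. The sets are not a label of the study and were formed from these same values, so differences between them are described without a test. Dbp, a gene under direct control of the circadian clock, ran from 9.68 to 10.23 in the first set and from 6.20 to 6.60 in the second.

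Taf10, Tpp1 and Smpd1 were lower in the first set than in the second, with no overlap. Taf10 ran from 8.19 to 8.38 in the first set, against 8.67 to 8.89 in the second. Tpp1 ran from 8.95 to 9.41 in the first set, below its 9.56 to 9.82 in the second. For Smpd1 the first set ran from 9.59 to 10.02 and the second from 10.18 to 10.45. Such a separation was present for 12.2% of all genes. The second Taf10 probe set did not show the separation, with 5.98 to 6.78 in the first set and 6.60 to 7.03 in the second. In the other 6 neighbours the sets overlapped, while Mrpl17 was higher in the first set (8.02 to 8.30) than in the second (7.72 to 8.01).

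With the array set as a term in the model, the intervals of these 3 genes narrowed. That was largely built in, since the genes were named for array sets that do not overlap. As the sets were formed from these same values, p-values from models that use them are descriptive. The NML-KO difference was 0.016 for Taf10 (interval -0.12 to 0.15), -0.027 for Tpp1 (interval -0.26 to 0.21) and 0.027 for Smpd1 (interval -0.17 to 0.23). In that model 0 of the 9 neighbours had an unadjusted p below 0.05 by limma, against 4.36% of all genes, and 6 were below 0, as were 55% of all genes, with a median of -0.049. Ilk was at -0.049 (interval -0.19 to 0.091), and Rrp8 at -0.87 (adjusted p = 0.179 by limma).

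Within the sets, estimates below 0 were mainly in the first (3 NML-KO and 2 WT livers) rather than the second (2 NML-KO and 3 WT livers). This contrast rests on few livers and is described without a test. In the first set 8 of 9 neighbours were below 0, with a median of -0.081, as were 53.8% of all genes. In the second set 2 of 9 were below 0, with a median of 0.043, as were 53% of all genes. An unadjusted p below 0.05 by limma was found for 0 neighbours in the first set, against 5.66% of all genes. The sign differed between sets for 6 genes, Ilk (-0.16 and 0.058), Taf10 (-0.039 and 0.070), Tpp1 (-0.075 and 0.021), Arfip2 (-0.38 and 0.028), Smpd1 (-0.081 and 0.13) and Fam160a2 (-0.21 and 0.043). Dchs1 and Apbb1 were below 0 in both, at -0.052 and -0.16 for Dchs1 and -0.098 and -0.025 for Apbb1, and Cnga4 was above 0 in both. Dchs1 in the second set was the single within-set value with an unadjusted p below 0.05 (0.0332, adjusted p = 0.965 by limma), where 4.73% of all genes had such a p. Rrp8 was at -0.97 and -0.76 in the sets, in the same order.

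**Figure D4:**
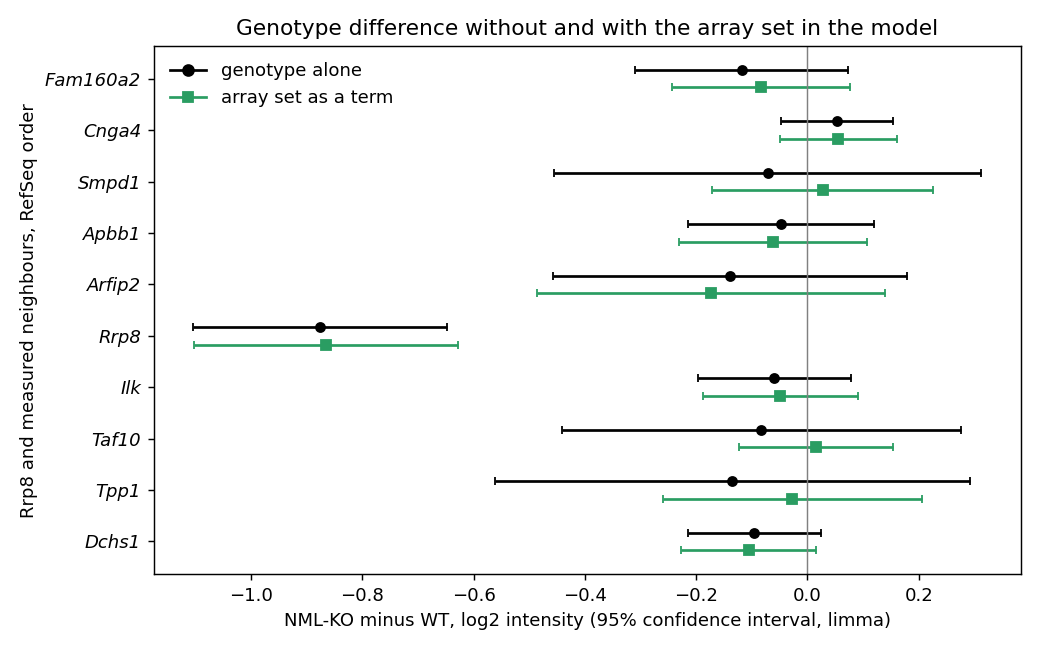
Difference in log2 intensity, NML-KO minus WT, with limma's 95% confidence interval, for Rrp8 and its 9 measured neighbours, from genotype alone (circles) and with the array set as a term (squares). The intervals of Taf10 (brighter probe set), Tpp1 and Smpd1 shorten and move towards 0, and Rrp8 stays near -0.87.

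Genes grouped with the neighbours by function or family, as partner lists, were also examined, and none passed the adjusted threshold. The ILK complex and integrin adhesion had 11 of 14 genes below 0 and 0 with an unadjusted p below 0.05 by limma; Tln1, the talin gene, was at -0.13 and Parva, whose product binds ILK, at 0.29. TFIID and SAGA had 22 of 31 below 0 and 0 with such a p, led by Atxn7 (0.11) and Tada3 (-0.087), both SAGA subunits. Lysosomal genes, mostly those of enzymes, had 21 of 31 measured below 0 and 0 with such a p. They were led by Idua (-0.23) and Fuca1 (-0.29), whose products break down glycosaminoglycans and fucosylated sugars. The medians of these lists lay between -0.047 and -0.040. Together 54 of their 76 measured genes were below 0, where 53.4% of all genes were. An unadjusted p below 0.05 by limma was found for 2.7% of all genes, so 0 in lists of this size says little.

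The 5 smaller lists held 30 measured genes, of which 2 had an unadjusted p below 0.05 by limma, both lower, where 2.7% of all genes had such a p and 1.66% were lower with it. Estimates were below 0 for 18 of the 30. Kat5, an acetyltransferase gene grouped with Fe65 and the amyloid precursor protein, was at -0.24 (unadjusted p = 0.0301 by limma), with 6 of 7 genes of that list below 0. Pick1, whose product has a membrane-bending domain like that of the arfaptins, was at -0.18 (unadjusted p = 0.0230 by limma), although 1 of 6 genes of its list was below 0. Neither the list of FHIP, Hook and AKTIP genes (5 of 7 below 0), the Dachsous and Fat genes (3 of 5) nor the cyclic nucleotide-gated channels (3 of 5) held a gene with such a p. In those lists the smallest p belonged to Hook1 (0.19), Fat4 (-0.051), the receptor of Dchs1, and Cngb1 (0.24), and the next to Fam160a1 (-0.18), Fat3 (-0.021) and Cnga2 (0.074). Apbb2, a relative of Apbb1, followed Kat5 with -0.090, and the GTPase gene Rac1 followed Pick1 with 0.11.

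For the nearest measured neighbour on each side, the genes most alike across the 10 livers were sought among 9967 genes at or above the median intensity, using values centred within genotype. Ilk was most like Nek4 (Pearson r = 0.965), Irf1 (0.954) and Vamp8 (0.945). Arfip2 was most like Ddit3 (0.924), Fam160b2 (0.918) and Rab24 (0.906). None of these 6 genes lies on chromosome 7, but 6 genes are too few to show whether the neighbours vary with their surroundings. The coefficients are the highest of many and describe these arrays, which also share the array sets.

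The tissue label was borne out by its markers: the 8 hepatocyte markers (Alb, Apoa1, Apob, Ttr, Cps1, Tat, Hnf4a and Tdo2) were at 11.4 or above on every array, with list means from 13.52 to 13.60 in NML-KO livers and from 13.47 to 13.61 in WT livers. Kupffer cell markers had list means from 7.26 to 8.56 in NML-KO livers and from 7.35 to 8.35 in WT livers, and their part in the variation of Tpp1 and Smpd1 was not tested. Fat markers had list means from 5.32 to 5.60 in NML-KO livers and from 5.44 to 7.09 in WT livers. Array medians ran from 62.5 to 66.7 on the linear scale, and precision is limited by there being 10 arrays.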

How the data were processed

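The authors' deposited values are linear intensities, from 18.4 to 29834, for 28815 probe sets on 10 arrays. The submitters' processing notes name build mm8. The background correction, normalization and probe summary used were not given in the sources used here. The arrays lay within 0.213 of their mean at each rank on the log2 scale.

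Of the probe sets, 21780 had 1 gene symbol in the platform table. The symbols of 21689 were updated by gene ID through a RefSeq table (GRCm38.p6), which otherwise served only for gene order, apart from the start windows of Rrp8 and Ilk. Of several probe sets of a gene, that with the highest mean was used, which left 19935 genes. Values were taken to log2 with no filter and fitted by limma 3.58.1 in R 4.3.3 (lmFit, eBayes), with p-values adjusted by Benjamini-Hochberg across the whole table and called at 0.05. Sample titles gave genotype and replicate number. The labels state nothing on litters or cages, so p-values measure the spread between these livers.

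Named genes were Rrp8, the neighbours, the other genes of the interval, genes within 25 measured genes with an unadjusted p below 0.05, the 2 partner genes of smallest p per list, and the 3 genes most alike. The neighbours and all lists were chosen with earlier results of these data known. The fit was tested on simulated data with many genes changed at once. At an adjusted p of 0.05 by limma it recovered 21.2% of 1.2-fold changes, 71.4% of 1.5-fold and 90.2% of 2-fold. Changes as small as the neighbours' estimates would thus mostly be missed at that threshold. Alternatives were other normalizations, an offset, other priors and weights, a filter on dim genes, other probe sets, a replicate block, the array set and each array left out.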

Additional observations from a re-analysis of the deposited data

Results flagged for a closer look

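In 32 groups of 5 livers (Rrp8, its 9 measured neighbours and the other 6 genes of the interval, in each genotype), a single liver far from the rest was found in 2, where chance gives about 1 in 20. Hpx in NML-KO 4 was at 14.42, with the other NML-KO livers from 13.80 to 13.94. Gm5901 in WT 2 was at 4.99, with the other WT livers from 5.36 to 5.47. None of the 9 neighbours had such a liver in either genotype.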

How the results depend on the processing

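Under 21 alternative settings, the neighbours gave 187 results, of which 0 had an adjusted p below 0.05 by limma (smallest 0.875), 3 had an unadjusted p below 0.05 and 10 had the opposite sign. Settings that leave out an array give a neighbour count with an unadjusted p below 0.05 of 0 to 1 (Dchs1 without NML-KO 1, Fam160a2 without NML-KO 4), and the second array set alone gives 1 (Dchs1); the fewer samples change the spread as well as the mean. The sign turned with the array set as a term for Taf10 (0.016) and Smpd1 (0.027), in the second array set for Ilk (0.058), Taf10 (0.070), Tpp1 (0.021), Arfip2 (0.028), Smpd1 (0.13) and Fam160a2 (0.043), and for Smpd1 without NML-KO 1 (0.0096) or NML-KO 2 (0.031), within a range of -0.18 to 0.031 with 1 array left out; the cause was not tested. Each of these had an unadjusted p above 0.05. With 1 array left out, Ilk ran from -0.10 to -0.023, Dchs1 from -0.13 to -0.071, Fam160a2 from -0.18 to -0.057 and Cnga4 from 0.042 to 0.069. The neighbours' median then ran from -0.15 to -0.035 and that of the other 6 genes of the interval from -0.078 to 0.018. That second median was -0.21 within the first array set. Rrp8 ran from -0.96 to -0.82 and passed the threshold without NML-KO 4 (-0.96, adjusted p = 0.0171 by limma), the single gene to do so, so that the count past the threshold ran from 0 to 1. Genes with an unadjusted p below 0.05, 539 of 19935, numbered 231 with dim genes left out, a setting that tests only genes at or above the median intensity. Over all genes they numbered 913 with array weights, 870 with the array set as a term, and within sets 1128 (first) and 943 (second). With 1 array left out they numbered from 358 (without NML-KO 1) to 994 (without NML-KO 4). With the replicate number as a block there were 834, and 0 neighbours among them; the arrays share only a number, since deviations of same-numbered arrays correlated from -0.42 to 0.54 and 1 of 5 NML-KO arrays correlated best with the WT array of its own number. Gene order windows of 10, 25 and 50 measured genes on either side of Rrp8 held 3 of 20, 3 of 50 and 6 of 100 genes with such a p, all lower, against 2.7% of all genes (1.66% lower). No olfactory receptor gene was among them, so the other genes of these windows gave 3 of 18, 3 of 18 and 6 of 33. The largest window added Trim12a, Trim30d and Ppfibp2 to Trim3, Cavin3 and Gm1966. Cnga4 and Apbb1 had no value with dim genes left out.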
